A study of Mus musculus with 20 samples.

Results

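Complement components and receptors were followed through RNA-seq of mouse microglia by the 9 genes C1qa, C1qb, C1qc, C3, C4b, C3ar1, C5ar1, C5ar2 and Itgam, which were picked by gene symbol and are 9 of the 21326 rows listed in each library. All 9 were found, and all 9 passed the filter on low values in every fit. The 20 libraries came from brains of 9-month-old C57BL/6 mice in 6 conditions, with 3 libraries each of WT, APP-KI and C3aRKO microglia, 5 of APP-KI;C3aRKO, and 3 each of WT and APP-KI microglia that were further sorted as C3aR+. APP-KI mice carry a humanized App gene with familial Alzheimer mutations (APP NL-G-F) in place of their own and form Aβ plaques, and C3aRKO mice lack a working C3ar1 gene in all tissues. The 4 genotypes without the C3aR+ sort were littermates of a cross between these lines. Before that cross the C3aRKO line had 5 generations of backcrossing to C57BL/6J. The C3aR+ libraries came from littermates of a separate cross that carried a Td-tomato reporter in a floxed C3ar1 allele. All cells were gated as CD45mid and CD11b+, and the C3aR+ cells in addition by Td-tomato fluorescence, so Itgam, which encodes CD11b, took part in every sort, and the C3ar1 locus in the C3aR+ sort. The sort, the reporter allele and the library series, which was read from the library numbers, all separate the C3aR+ libraries from the other 14 and cannot be told apart. What the series stands for is not given.

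Complement is a cascade of plasma and tissue proteins that tags targets for uptake. C1q binds a surface and starts the classical pathway, which cleaves C4 and C2 to form an enzyme that cleaves C3. The large fragment of C3 is laid down on the target and is read by complement receptor 3, a pair of the integrin chains CD11b (Itgam) and CD18 (Itgb2), while the small fragments C3a and C5a signal through the G protein-coupled receptors C3aR (C3ar1) and C5aR1 (C5ar1), with C5aR2 (C5ar2) as a further C5a receptor. In the brain C1q is made chiefly by microglia, while astrocytes are a further source of C3 and C4, and C1q, C3 and complement receptor 3 are known for their part in the removal of synapses by microglia.

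The 3 C1q genes lie next to each other on the minus strand of chromosome 4 (GRCm38, GENCODE M21), in the order C1qb (136880129 to 136886187), C1qc (136889804 to 136893065) and C1qa (136895917 to 136898803), and span 18675 bases. C5ar2 (16234585 to 16244154) and C5ar1 (16246743 to 16259540) are neighbours on the minus strand of chromosome 7, with 2588 bases between them, and Itgam lies on the plus strand of the same chromosome (128062640 to 128118491). C3 (57203970 to 57228136) and C4b (34728380 to 34743882) are both on the minus strand of chromosome 17. C3ar1 lies on the minus strand of chromosome 6 (122847138 to 122856161). C4b has a near-identical copy, C4a, on the same chromosome, and C4a was not among the rows, so reads of C4b are uncertain to the extent that the counting could split or drop shared reads.

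Promoter windows of 300 bases, from 250 before to 50 after the start of transcription, were taken from RefSeq (GRCm38.p6) for 7 of the 9 genes, with 2 windows for C5ar2. C1qa and C4b had no entry. The windows of C3ar1, the gene that was deleted and used in the sort, and of C1qb and C1qc, whose levels moved together, are shown 5′ to 3′ on the strand of the gene, at chr6:122856108-122856407, chr4:136886151-136886450 and chr4:136892865-136893164. Capitals mark matches on either strand to ACGTG (the core of the hypoxia response element), TGANTCA (AP-1) or GAGGAAG (the PU.1 core).
C3ar1: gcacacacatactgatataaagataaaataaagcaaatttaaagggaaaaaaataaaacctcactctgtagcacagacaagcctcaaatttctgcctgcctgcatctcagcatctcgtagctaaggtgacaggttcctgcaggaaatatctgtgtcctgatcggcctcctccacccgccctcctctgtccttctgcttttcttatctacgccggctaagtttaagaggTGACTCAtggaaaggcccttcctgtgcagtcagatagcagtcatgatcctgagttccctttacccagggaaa
C1qb: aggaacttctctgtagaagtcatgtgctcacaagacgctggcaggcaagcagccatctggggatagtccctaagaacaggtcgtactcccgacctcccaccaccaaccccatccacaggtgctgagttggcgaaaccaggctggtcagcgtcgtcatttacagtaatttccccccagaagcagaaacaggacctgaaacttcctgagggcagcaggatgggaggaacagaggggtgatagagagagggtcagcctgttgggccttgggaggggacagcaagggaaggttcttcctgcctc
C1qc: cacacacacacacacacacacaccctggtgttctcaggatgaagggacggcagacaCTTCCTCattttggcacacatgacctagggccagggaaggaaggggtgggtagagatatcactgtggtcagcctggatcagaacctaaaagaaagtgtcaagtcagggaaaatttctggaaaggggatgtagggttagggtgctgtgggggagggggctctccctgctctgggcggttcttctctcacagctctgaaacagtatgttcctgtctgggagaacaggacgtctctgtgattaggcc
The C3ar1 window held 1 AP-1 match, 22 bases before the start, and the C1qc window 1 PU.1 core match, 194 bases before it. Of the other windows, that of Itgam held 2 PU.1 core matches and 1 of the 2 of C5ar2 held 1. None of the 8 windows held ACGTG. Over all 32851 windows of this length, 19.6% held ACGTG, 7.81% TGANTCA and 13.6% GAGGAAG.

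Values are given on a scaled read count, which is the gene's reads divided by the 75th percentile of counts in its library and multiplied by 1 constant, and they are not divided by gene length. Libraries held 13939559 to 30388941 reads in the C3aR+ sort and 42239056 to 76608464 in the others. The lowest read count of any member in any library was 256 (C3), so that counting error was small beside the spread between libraries. Of the 20 libraries, 4 (APP-KI 4, C3aRKO 1 and 2, APP-KI;C3aRKO 1) had reads in 12387 to 13250 genes and 1 (APP-KI 5) in 21219, against 14888 to 17450 in the other 15. Calls of members that rest on them are given with and without these 5, and calls of other complement genes only with them. All 11 microglial markers were present in every condition. Their summed level was 32425 to 34654 in WT and 12603 to 25655 in APP-KI, 27334 to 30201 in WT C3aR+ and 19283 to 22848 in APP-KI C3aR+, so it was lower with APP-KI without overlap in either sort, and it was 19518 to 33219 in C3aRKO and 10899 to 27868 in APP-KI;C3aRKO libraries. That of 8 astrocyte markers was 303 to 406 in WT C3aR+ and 223 to 281 in APP-KI C3aR+, without overlap, and 265 to 317 in WT and 213 to 348 in APP-KI libraries. The summed level of 7 markers of border macrophages was 479 to 717 in WT C3aR+, 188 to 398 in APP-KI C3aR+, 453 to 1224 in WT, 267 to 305 in APP-KI, 374 to 603 in C3aRKO and 196 to 357 in APP-KI;C3aRKO libraries. That of 7 endothelial markers was 172 to 327 in APP-KI C3aR+ and 203.5 to 259 in APP-KI, against 46.6 to 96.1 in WT C3aR+ and 49.2 to 60.0 in WT libraries. Of these 7, only 3 averaged a scaled level of at least 1 in APP-KI C3aR+, against 6 in WT C3aR+, 6 in APP-KI and 4 in WT. The higher sum in APP-KI C3aR+ was thus carried by few of the markers. Less RNA per cell and fewer cells of a kind cannot be told apart in such bulk libraries, and the part of these cells in the differences below was not tested.

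C3ar1, the gene that was deleted and whose locus carries the reporter, checks the labels. Its scaled level was 276, 329.9 and 340.0 in WT, 165, 315 and 388 in APP-KI, 68.1, 39.9 and 65.7 in C3aRKO, and 80.4, 77.4, 69.4, 75.9 and 61.9 in APP-KI;C3aRKO libraries. Every library of the 2 knockout genotypes was therefore below every WT and APP-KI library. Whether the reads left in the knockouts fall in the deleted part of the gene was not tested. In C3aRKO against WT the log2 difference was -2.39 ± 0.27 (SE, limma adjusted p = 0.0034), which is 0.191 times the WT level. In APP-KI;C3aRKO against APP-KI it was -1.95 ± 0.24 (limma adjusted p = 0.0097), or 0.259 times. C3ar1 was the single gene that limma called in each of these comparisons among the 12410 tested, or 0.00806% of them, and DESeq2 called 9 genes and 1. In the former limma called 21 genes without C3aRKO 3, and in the latter 17 genes with library weights. Within the library series, with 1 to 3 libraries per group, it was -2.38 and -2.33 for the first comparison and -1.52 and -2.48 for the second. Without the 5 libraries, which leaves 1 library each of C3aRKO and APP-KI, it was -2.25 and -2.43. The call of C3aRKO against WT was lost without WT 4 (-2.42, limma adjusted p = 0.055) and that of APP-KI;C3aRKO against APP-KI without APP-KI 5 (-1.81, limma adjusted p = 0.11) or APP-KI 6 (-1.68, limma adjusted p = 0.45), and both were lost with no trend, with only the 2 groups fitted or with a replicate block. The difference lay between -2.55 and -2.19 in the former and between -2.43 and -1.68 in the latter over 27 alternatives.

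In the C3aR+ sort the C3ar1 level was 71.0, 81.2 and 37.6 in the libraries labelled WT C3aR+ and 383, 251 and 201 in those labelled APP-KI C3aR+. The former lay below all 3 unselected WT libraries and overlapped the C3aRKO range, although the label names cells that express the receptor. They held 1056 to 2208 reads of C3ar1. The reason for the low level was not tested, and sort, reporter allele and series cannot be told apart here. The APP-KI C3aR+ libraries overlapped the unselected APP-KI libraries. The difference between the sorted genotypes was 2.14 ± 0.30 on the log2 scale (limma adjusted p = 0.001), a 4.41-fold higher level in APP-KI C3aR+, whereas the unselected APP-KI and WT libraries differed by -0.13 ± 0.27 (limma adjusted p = 0.97), with overlapping groups. Over the 12 WT and APP-KI libraries, the difference between these genotype effects was 2.34 ± 0.47 (95% interval 1.32 to 3.37). It did not pass the adjustment with limma (adjusted p = 0.39), where 0 of 12592 genes did and 1480 had an unadjusted p under 0.05, nor with edgeR (adjusted p = 0.36), and it passed with library weights (limma adjusted p = 0.046, 6 genes called) and with DESeq2 (adjusted p = 0.00067), which called 120 genes, or 0.953%. Between the sorts themselves the C3ar1 level is a description, since its locus was used to sort. Within the C3aR+ sort the same locus set the gate in both genotypes, and its part in their difference was not tested.

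**Figure D1:**
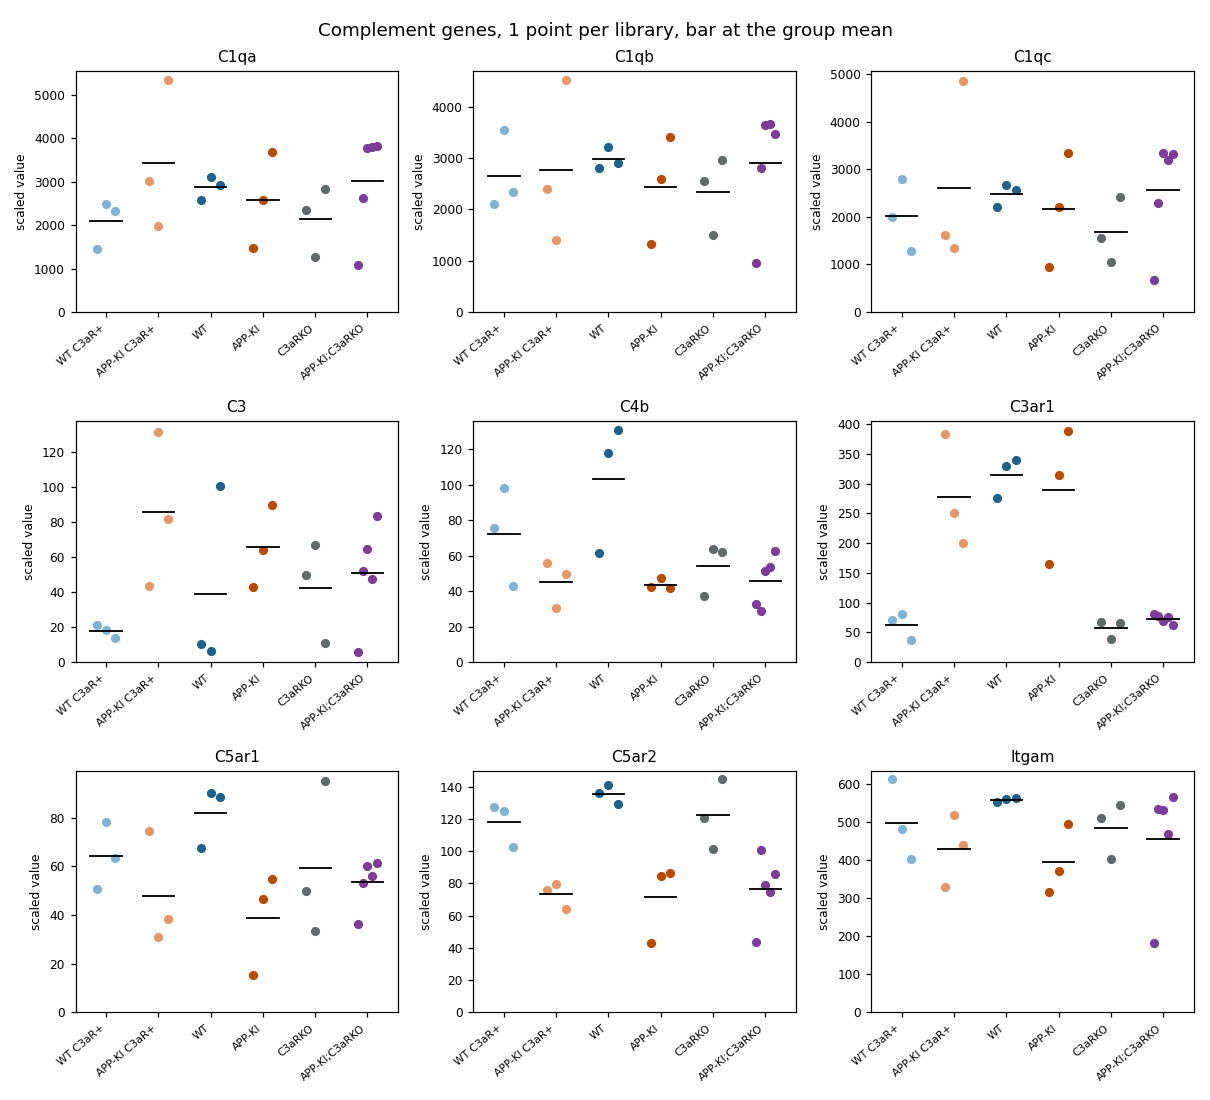
Scaled level (linear axis from 0) of the 9 complement genes, 1 point for each of 20 libraries and a bar at the mean of each condition. C3ar1 lies between 37.6 and 81.2 in the WT C3aR+, C3aRKO and APP-KI;C3aRKO libraries and between 165 and 388 in the WT, APP-KI and APP-KI C3aR+ libraries.

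C3, the central component that is cleaved to C3a and C3b, varied more between libraries than any other member, from 5.79 to 132 (22.7-fold), against 3.36-fold to 10.3-fold for the other 8. It was 21.4, 18.4 and 13.6 in the libraries labelled WT C3aR+, whose C3ar1 level overlapped that of C3aRKO, and 43.6, 132 and 82.1 in APP-KI C3aR+, with no overlap. The difference was 2.09 ± 0.35 on the log2 scale (limma adjusted p = 0.0027), a 4.27-fold higher level in APP-KI C3aR+. In the unselected libraries C3 was 10.7, 6.53 and 100.4 in WT and 43.1, 64.3 and 89.8 in APP-KI. WT 6 lay above every APP-KI library while the other WT libraries lay below them. The difference of 1.82 ± 0.99 had an interval from -0.29 to 3.94 and did not pass (limma adjusted p = 0.53). WT 6 also had the highest summed level of 10 markers of monocytes and neutrophils, 865 against 31.1 to 506 in the other 19 libraries. The sum of 506 was that of WT C3aR+ 1, where C3 was 21.4, and APP-KI C3aR+ 2, with the highest C3, had a sum of 56.4. The part of such cells in the C3 level was not tested. Without WT 6 the difference in C3 was 2.81 (limma adjusted p = 0.16). The effects of APP-KI on C3 in the sorted and the unselected libraries differed by 0.47 ± 1.04 (limma adjusted p = 0.86). C3 was 49.98, 66.8 and 10.9 in C3aRKO and 5.79, 52.2, 64.8, 47.8 and 83.4 in APP-KI;C3aRKO libraries, ranges that overlap each other and those of their controls. No comparison of C3 that involved a knockout was called.

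C5ar2, the second receptor of C5a, was 127, 125 and 102 in WT C3aR+ and 75.9, 79.6 and 64.1 in APP-KI C3aR+ libraries, which did not overlap. It fell by 0.68 ± 0.14 on the log2 scale (limma adjusted p = 0.008), to 0.623 times the WT C3aR+ level. In the unselected libraries it was 136, 141 and 129 in WT, 43.0, 84.4 and 86.3 in APP-KI, 121, 101 and 144 in C3aRKO, and 43.8, 100.4, 79.3, 74.7 and 85.7 in APP-KI;C3aRKO. Each library with the APP-KI allele was below each library without it, in the sorted and in the unselected cells. The margin was narrow, 100.4 in APP-KI;C3aRKO 2 against 101 in C3aRKO 2, and the share of all genes that split in this way was not counted. In the single comparisons, 43.5% of all genes did not overlap in the C3aR+ sort, 29.3% in APP-KI against WT and 13.7% in APP-KI;C3aRKO against C3aRKO. The difference of APP-KI from WT was -0.89 ± 0.28 (limma adjusted p = 0.11), and that of APP-KI;C3aRKO from C3aRKO was -0.77 ± 0.25 (limma adjusted p = 0.082). The former passed with library weights (-1.04, limma adjusted p = 0.0033) and without APP-KI;C3aRKO 1 (-0.94, limma adjusted p = 0.029), and the latter without APP-KI 4 (-0.75, limma adjusted p = 0.048) or APP-KI;C3aRKO 2 (-0.99, limma adjusted p = 0.019). Without the 5 libraries named above, which leaves 1 library each of APP-KI and C3aRKO that is assumed to vary like the others, both passed, at -0.58 (limma adjusted p = 0.021) and -0.81 (limma adjusted p = 0.0024). That fit called 15.7% and 34.3% of all genes tested in these comparisons.

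C5ar1, the main signalling receptor of C5a, was 67.5, 90.1 and 88.7 in WT and 15.5, 46.5 and 54.9 in APP-KI libraries. These groups did not overlap, and the difference of -0.99 ± 0.33 did not pass (limma adjusted p = 0.14). It passed in 3 of 27 alternatives, which were library weights (-0.84, limma adjusted p = 0.022), leaving out APP-KI 5 (-1.31, limma adjusted p = 0.036) and leaving out the 5 libraries named above. In the C3aR+ sort it was 50.6, 78.2 and 63.5 in WT and 74.5, 31.2 and 38.2 in APP-KI, with overlap and a difference of -0.49 ± 0.30 (limma adjusted p = 0.25), or -0.85 without APP-KI C3aR+ 1 (limma adjusted p = 0.027). C3aRKO libraries held 49.9, 33.4 and 95.2 and APP-KI;C3aRKO libraries 36.5 to 61.2 (median 56.0). Leaving out the 5 libraries named above leaves 1 library each of APP-KI and C3aRKO. The log2 difference in C5ar1 was then -0.65 for APP-KI against WT and -0.65 for APP-KI;C3aRKO against C3aRKO. The C3aRKO library left, C3aRKO 3, held 95.2, the highest C5ar1 level of all 20 libraries. With the 5 libraries kept, the latter difference was -0.23 ± 0.30 (limma adjusted p = 0.71).

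Since all members are measured in the same library, the ratio of the 2 anaphylatoxin receptors per kilobase of exon is free of the scaling between libraries. C3ar1 over C5ar1 was 2.19 to 2.44 in WT, 4.04 to 6.37 in APP-KI and 3.07 to 4.81 in APP-KI C3aR+, and 0.353 to 1.31 in the 11 libraries of WT C3aR+, C3aRKO and APP-KI;C3aRKO. The WT and APP-KI ratios did not overlap, while C3ar1 itself did. C5ar1, the divisor, was itself lower in APP-KI than in WT libraries without overlap, and the ratio was not tested. C5ar2 over C5ar1 ranged from 0.736 to 2.18, and WT and APP-KI libraries overlapped in either sort.

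C4b, the classical pathway component cleaved after C1q has bound, was 61.5, 118 and 131 in WT and 42.3, 47.4 and 41.6 in APP-KI libraries. All WT libraries were above all APP-KI libraries, and C4b was the single member called in this comparison, at -0.96 ± 0.25 on the log2 scale (limma adjusted p = 0.048), or 0.514 times the WT level. The call rests on a narrow margin, since it was lost in 19 of 27 alternatives tried (limma, edgeR or DESeq2 adjusted p between 0.00041 and 0.35 over the 27). Of the 14 that left out 1 library, 9 lost the call, namely those without WT 4, 5 or 6, APP-KI 4 or 6, C3aRKO 3, or APP-KI;C3aRKO 3, 4 or 5, at log2 differences of -1.18 to -0.62. Without the 5 libraries named above, which leaves APP-KI 6 as the 1 APP-KI library, the difference was -1.54. The direction was the same in all 27, which share most of their libraries. The difference was -0.45 within series 24 (2 APP-KI libraries against 1 of WT) and -1.55 within series 26 (1 against 2). In the C3aR+ sort C4b was 75.6, 98.1 and 43.0 in WT and 55.8, 30.5 and 49.9 in APP-KI, which overlap, with a difference of -0.63 ± 0.31 (limma adjusted p = 0.17), or -0.95 without WT C3aR+ 3 (limma adjusted p = 0.045). C3aRKO libraries held 37.3, 63.8 and 62.3, with a difference of -0.69 ± 0.25 from WT that did not pass (limma adjusted p = 0.99). APP-KI;C3aRKO libraries held 28.9 to 62.8 (median 51.5). The summed levels of border macrophage and microglial markers were also lower in APP-KI than in WT libraries, as given above.

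C1qa, C1qb and C1qc encode the 3 chains of C1q and were by far the most abundant members, with median scaled levels per kilobase of exon of 2504, 2585 and 1167, against 99.9 for Itgam and 9.24 to 26.2 for the other 5 genes. Together they took 0.284% to 1.34% of the reads of a library, and C1qa ranked between 9 and 60 among all genes by read count. C1qa was 1441, 2498 and 2316 in WT C3aR+, 3006, 1975 and 5341 in APP-KI C3aR+, 2572, 3120 and 2928 in WT, and 1482, 2572 and 3678 in APP-KI libraries. The range of the unselected APP-KI libraries enclosed that of WT, and the sorted groups overlapped. C1qa differed by 0.64 ± 0.34 (limma adjusted p = 0.20) in the C3aR+ sort and by 0.03 ± 0.36 in the unselected libraries (limma adjusted p = 1.0). C1qb differed by -0.06 ± 0.38 and -0.14 ± 0.39, and C1qc by 0.18 ± 0.45 and -0.03 ± 0.42, in the same comparisons. None of the 3 was called in any of the 9 comparisons with all libraries. APP-KI;C3aRKO 1 held the lowest level of each chain (1074, 962 and 676) and is 1 of the 5 libraries named above. Without these 5, C1qa (0.39) and C1qc (0.41) passed as higher in APP-KI;C3aRKO than in the 1 remaining C3aRKO library, in a fit that called 34.3% of all genes.

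The 3 chains followed each other over the libraries, with a Pearson r of 0.95 for C1qb with C1qc, 0.91 for C1qa with C1qb and 0.90 for C1qa with C1qc over 20 libraries on the log2 scale, which all share the depth and quality of the library. Their proportions varied. C1qb over C1qa per kilobase was 1.39, 1.36 and 0.962 in WT C3aR+ and 0.763, 0.680 and 0.809 in APP-KI C3aR+ libraries, with no overlap, against 0.949 to 1.04 in WT and 0.859 to 0.963 in APP-KI libraries. C1qc over C1qa was 0.300 to 0.744 and 0.289 to 0.490 in the sorted groups, which overlapped. These ratios were not tested.

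**Figure D2:**
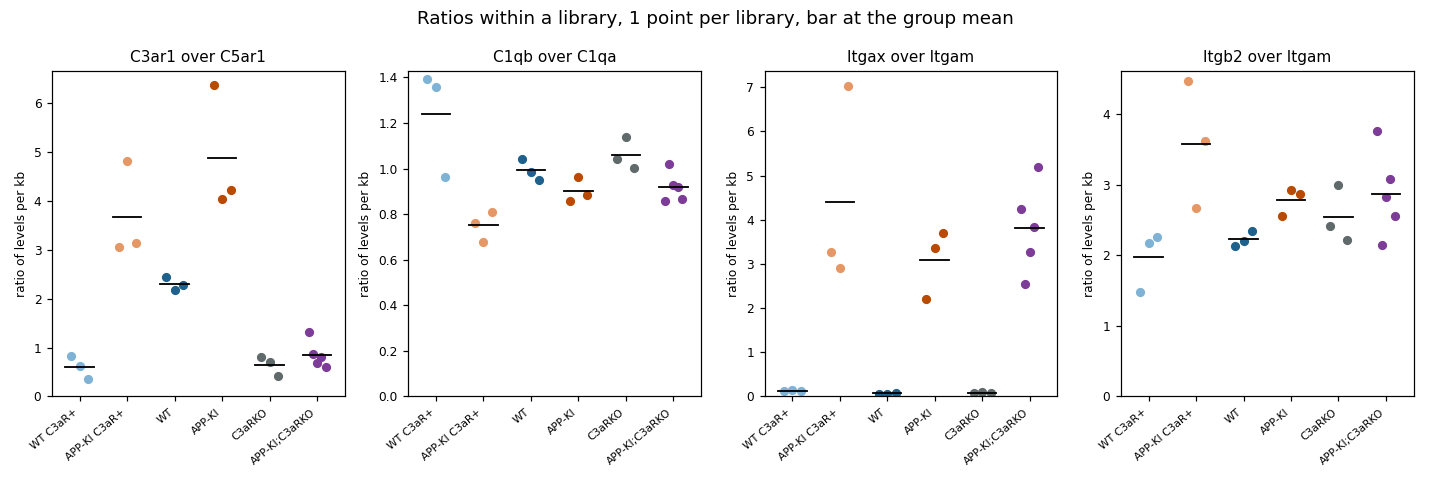
Ratios of levels per kilobase of exon within each library (linear axes from 0), 1 point per library and a bar at the mean of each condition. Itgax over Itgam is 0.0505 to 0.142 in the 9 libraries without the APP-KI allele and 2.20 to 7.03 in the 11 with it, and C1qb over C1qa separates WT C3aR+ from APP-KI C3aR+ libraries.

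Itgam, the alpha chain of complement receptor 3, was 551, 559 and 563 in WT and 317, 370.4 and 495 in APP-KI libraries, without overlap, at a difference of -0.38 ± 0.30 (limma adjusted p = 0.78), or -0.17 without the 5 libraries named above (limma adjusted p = 0.39). In the C3aR+ sort it was 611, 480.0 and 402 in WT and 328, 518 and 439 in APP-KI (-0.22 ± 0.19, limma adjusted p = 0.43). C3aRKO libraries held 402 to 543, all below the WT range, and APP-KI;C3aRKO libraries 182 to 565 (median 529.7). With all libraries Itgam was called in APP-KI against WT with library weights (-0.63, limma adjusted p = 0.029) and in no comparison without them. By contrast Itgax, which encodes CD11c, the alpha chain of complement receptor 4, rose in all 3 comparisons of the APP-KI allele. Its level was 27.0 to 44.7 in WT and 666 to 1754 in APP-KI (5.17 ± 0.34 on the log2 scale, limma adjusted p = 3.6e-07), 45.5 to 70.4 in WT C3aR+ and 1024 to 2951 in APP-KI C3aR+ (4.76 ± 0.33), and 33.8 to 38.6 in C3aRKO and 736 to 2807 in APP-KI;C3aRKO libraries (5.21 ± 0.30). The ratio of CD11c to CD11b transcripts per kilobase was 0.0505 to 0.142 in the 9 libraries without the APP-KI allele and 2.20 to 7.03 in the 11 with it. Itgb2, the beta chain that both receptors share, was higher in APP-KI C3aR+ than in WT C3aR+ (0.63 ± 0.12, limma adjusted p = 0.0053) and differed by -0.06 ± 0.22 between unselected APP-KI and WT libraries (limma adjusted p = 0.99).

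Counted over the 9 genes, 3 were called in APP-KI C3aR+ against WT C3aR+, with C3 and C3ar1 higher and C5ar2 lower. Of all genes tested there, 22.7% were called, 13% higher and 9.7% lower. C3ar1 was counted although its locus carried the reporter by which both groups were sorted. The same 3 were the members whose groups did not overlap, as was so for 43.5% of all genes. The median difference of all genes in this comparison was -0.17, and -0.04 with median ratio scaling, and 57.3% of all calls were higher in the first setting and 73.1% in the second, while the 3 members kept their direction and their call in all 16 alternatives at an adjusted p under 0.05. The median of the 9 members was -0.06. In APP-KI against WT, 1 of 9 was called (4.14% of all genes) and 4 did not overlap, all lower in APP-KI (16.4% of all genes did so, and 29.3% in either direction). In APP-KI;C3aRKO against C3aRKO, 0 were called (6.93% of all genes; 1 had an unadjusted p under 0.05, and edgeR and DESeq2 also called 0) and 1 did not overlap (13.7%). The medians of the 9 members were -0.14 and 0.02 in these comparisons, against -0.01 and -0.03 over all genes. Apart from C3ar1, no member was called in C3aRKO against WT, where the other 8 differed by -0.69 to 0.93 and Itgam alone of them did not overlap (18.5% of all genes), or in APP-KI;C3aRKO against APP-KI, where they differed by -0.85 to 0.42 and all overlapped (1.61% of all genes did not).

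**Figure D3:**
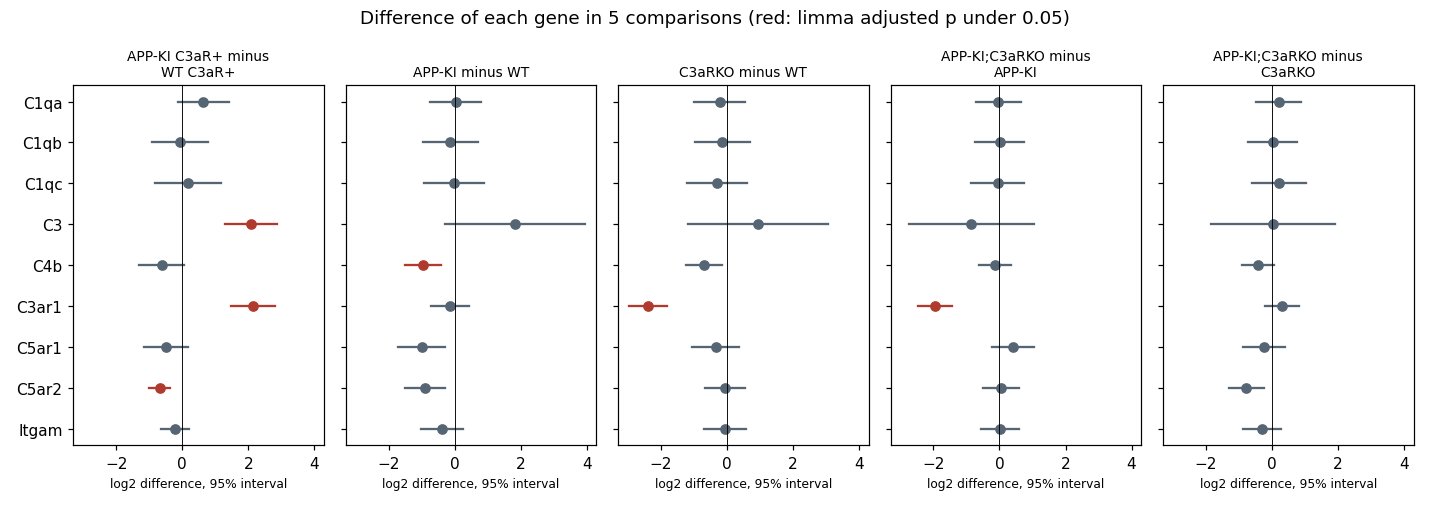
Difference between groups on the log2 scale (points) with 95% intervals (lines) for each gene in 5 comparisons, in red where the limma adjusted p was under 0.05. C3 and C3ar1 lie to the right and C5ar2 to the left of 0 in the C3aR+ sort, C4b to the left in APP-KI against WT, and C3ar1 to the left in both comparisons of the knockout.

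The effect of the knockout was compared between APP-KI and WT mice by an interaction term. It called 0 of 9 members and 0 of 12410 genes by limma and by edgeR, with 203 genes at an unadjusted p under 0.05 by limma, and DESeq2 called 1 gene, not a member. The interaction for C3ar1 was 0.44 ± 0.36, and for the other 8 genes it lay between -1.78 and 0.76. Between the C3aR+ sort and the unselected cells, limma called 0 of the 8 members other than C3ar1 and 0 of 12592 genes in WT (552 at an unadjusted p under 0.05) and likewise in APP-KI (657). edgeR called 0 genes, DESeq2 39 and 28, and limma with library weights 565 (4.49%) and 0, none of them among the 8. In WT the log2 differences of the 8, libraries labelled C3aR+ minus unselected, lay between -0.52 and -0.17, with no overlap for C1qa and C5ar2 (23% of all genes did not overlap). In APP-KI they differed by 0.01 to 0.39, with overlap for all 8 (6.07% of all genes did not overlap). Reporter, sort and series cannot be told apart in these comparisons.

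Of 51 further complement genes, listed by role, 50 were found and 20 were tested in the C3aR+ fit and in the unselected fit, the others being too low. Among initiators and their proteases, Masp1, a serine protease gene best known for the lectin pathway, was 9.47 to 18.02 in WT C3aR+ and 54.8 to 84.3 in APP-KI C3aR+ (2.13 ± 0.27, limma adjusted p = 0.00068), and was also higher in APP-KI than in WT (2.20 ± 0.27) and in APP-KI;C3aRKO than in C3aRKO (2.11 ± 0.24). Among receptors, partners and other ligands, Itgax, Itgb2, C1qbp (1.66 ± 0.25) and Calr (0.60 ± 0.13), the last 2 encoding proteins that bind C1q, were higher in APP-KI C3aR+. Cd93, encoding a lectin-like surface receptor of myeloid and endothelial cells, fell by 1.24 ± 0.30 in unselected APP-KI (limma adjusted p = 0.031). In all, 6 of 20 were called in the C3aR+ sort, all higher (22.7% of all genes were called, 13% higher), 3 of 20 in APP-KI against WT (4.14%) and 2 of 20 in APP-KI;C3aRKO against C3aRKO (6.93%), and 0 of 20 in the 2 comparisons of the knockout with its control. The median difference of the 20 was -0.64 in the C3aR+ sort (-0.17 over all genes) and 0.08 in APP-KI;C3aRKO against C3aRKO (-0.03). The comparisons of unselected cells share libraries and 1 fit.

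The conditions were also put in order by the mean level of each member. For C3ar1 the order from high to low was WT, APP-KI, APP-KI C3aR+, APP-KI;C3aRKO, WT C3aR+ and C3aRKO, and only the third and the fourth did not overlap. For C5ar2 it was WT, C3aRKO, WT C3aR+, APP-KI;C3aRKO, APP-KI C3aR+ and APP-KI, again with a gap between the third and the fourth alone. For the other 7 members every neighbour in the order overlapped the next. The share of all genes with such a gap was not counted, so the gaps describe C3ar1 and C5ar2 alone.

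Over the 20 libraries, the genes most like each member by Pearson r on the log2 scale were Itm2c (0.94), Mapk3 and Fcgr3 for C1qa, C1qc (0.95), C1qa and Vsir for C1qb, C1qb (0.95), Uba1 and Cds2 for C1qc, Tuba4a (0.86), Mocos and Anxa2 for C3, Ms4a4a (0.86), Stk17b and Itga6 for C4b, Klrb1b (0.78), H4c6 and Cdca2 for C3ar1, Deptor (0.92), Il10rb and Pla2g15 for C5ar1, Notch1 (0.97), Adgrg1 and Cd164 for C5ar2, and Kpnb1 (0.95), Bcl2l13 and Rab10 for Itgam. Ms4a4a, the gene most like C4b, is also known from border macrophages. C3ar1, which is deleted in the C3aRKO and APP-KI;C3aRKO libraries, had the lowest best match. Among the members, C5ar2 went with Itgam (r = 0.75) and with its neighbour C5ar1 (0.74), whereas C3ar1 had an r between -0.05 and 0.30 with each of the other 8. These values describe the 20 libraries, which share conditions, depth and quality. For C3ar1 they include the knockout libraries, so they do not show how it goes with other genes where it is intact.

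**Figure D4:**
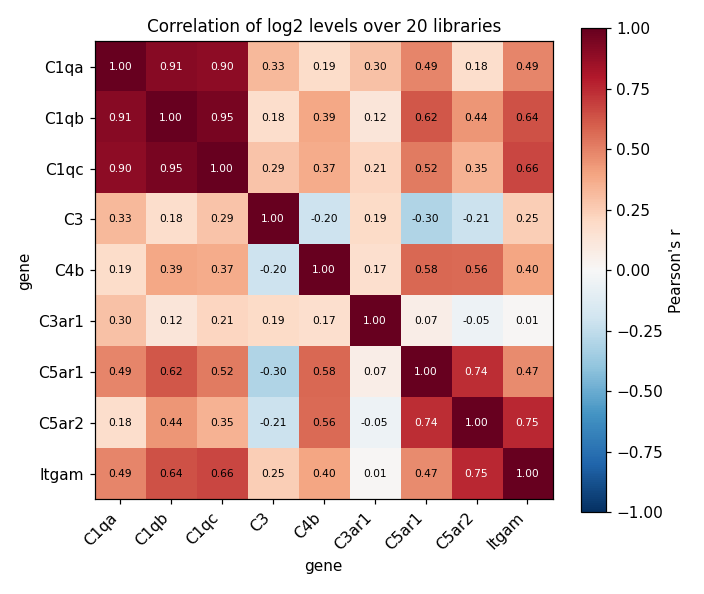
Pearson's r between each pair of the 9 genes over 20 libraries on the log2 scale, from blue (-1) to red (1). The 3 C1q genes form a block of 0.90 to 0.95. C3ar1, which is deleted in the C3aRKO and APP-KI;C3aRKO libraries, has no r above 0.30.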

How the data were processed

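RNA from sorted mouse microglia was sequenced as 20 libraries, 1 per sample. Per the labels and the study's methods, the authors trimmed reads with cutadapt, aligned them to mm10 with TopHat2 and counted them with featureCounts; annotation, strand setting and the use of molecular identifiers are not given in the sources used here. The deposited signal per gene, named FPKM, is the read count divided by the 75th percentile of counts in the library and not by gene length, since 100% of values were whole reads within 0.01. Values were multiplied by 1 constant (35.2).

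Genes whose scaled level averaged 1 or more were tested as log2(value + 1) by limma 3.58.1 (R 4.3.3) with a trend, and p-values were adjusted by Benjamini-Hochberg over all genes tested, with a call at an adjusted p under 0.05. Fold changes are on the log2(value + 1) scale and understate low genes. The 6 C3aR+ libraries, the 14 unselected libraries (with the series, 24 or 26, taken from library numbers as a term) and the 12 WT and APP-KI libraries were fitted separately. edgeR 4.0.16 and DESeq2 1.42.0 were run on the recovered reads as alternatives. For WT C3aR+ 3 the automatic unit check did not accept recovered reads, because its step is close to a power of 10, and the library was kept in both since its values were whole to the same tolerance. Replicate libraries were not identical, and nothing says that they came from separate mice, so p-values measure the spread between these samples, which may be technical. Same-numbered libraries did not deviate together in every pair, so numbers were not used to pair them.

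The members, the lists of other complement genes and markers, and the tests were chosen with earlier results of these data known. All 9 members were followed in every comparison. The values of 1 of the other complement genes are not reported here. The scripts were tested on simulated data. Figures were drawn with matplotlib 3.10.9.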

Additional observations from a re-analysis of the deposited data

Results flagged for a closer look

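Of 22 groups of values tested for 1 library far from the rest, 3 stood out, and chance alone gives about 1 in 20. All 22 were of the 5 APP-KI;C3aRKO libraries, 1 for each gene or ratio, since the other conditions, with 3 libraries each, were too small for the rule. That all flags fell in this condition therefore says nothing about how it compares with the others. Itgam was lowest in APP-KI;C3aRKO 1, at a scaled level of 182 against 467 in the next library. The ratio of C1qc to C1qa per kilobase was also lowest in APP-KI;C3aRKO 1, at 0.339 against 0.453 in the next, and this library has reads in fewer genes (12387) than any other. The ratio of C5ar2 to C5ar1 was highest in APP-KI;C3aRKO 2, at 1.37 against 1.01. Of 18 differences between effects that were tested, 0 passed the adjusted p with limma.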

How the results depend on the processing

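Precision is limited by 3 to 5 libraries per condition, by 5 libraries with unusual numbers of genes, and by the overlap of sort, reporter and series. Each of the 9 members was recomputed in every comparison under every alternative, giving 2013 values. Of the 135 for members called with all libraries, 0 changed sign, and of the 1878 for members not called, 172 changed sign and 0 of those were called. Values are listed one by one here only for differences that the text prints, a restriction made after these 172 had been seen. Where no cause is named below, the cause was not tested.

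In APP-KI C3aR+ against WT C3aR+ the 3 calls became 0 at an adjusted p under 0.0005. C1qb turned from -0.06 to 0.069 with median ratio scaling, 0.18 with edgeR and 0.22 with DESeq2, and lay between -0.50 and 0.35 when 1 library was left out. C1qc turned from 0.18 to -0.13 with library weights (-0.39 to 0.54 leaving out 1 library). Calls over all genes were 1602 higher and 1195 lower as reported, 1463 and 1710 with CPM scaling, and 1820 and 669 with median ratio scaling.

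In APP-KI against WT the 1 call became 0 with a pseudocount of 0.1, no filter, CPM scaling, median ratio scaling, no trend, edgeR, an adjusted p under 0.0005, no series term, only the 2 groups, or a replicate block. It became 3 with library weights (C5ar1, C5ar2 and Itgam, with 13.6% of all genes called) and 3 without the 5 libraries, an alternative added after seeing the data (C4b, C5ar1 and C5ar2). It ranged from 0 to 2 leaving out 1 library. C1qa turned from 0.03 to -0.25 with no series term, -0.057 with only the 2 groups and -0.17 with the block (-0.15 to 0.33 leaving out 1 library). C1qb turned from -0.14 to 0.12 without the 5 libraries (-0.34 to 0.19). C1qc turned from -0.03 to 0.019 with median ratio scaling, 0.11 with library weights, 0.0033 with edgeR, 0.033 with DESeq2 and 0.31 without the 5 (-0.29 to 0.37). C3ar1 turned from -0.13 to 0.29 without the 5 (-0.41 to 0.17).

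In C3aRKO against WT and in APP-KI;C3aRKO against APP-KI, the 1 call of C3ar1 became 0 with no trend, an adjusted p under 0.0005, only the 2 groups or the block, and ranged from 0 to 1 leaving out 1 library. DESeq2 called 9 genes in the former and limma 21 without C3aRKO 3, and library weights gave 17 in the latter, each against 1. Over all genes, library weights gave 1688 calls in APP-KI against WT (514 as reported), 1506 in APP-KI;C3aRKO against C3aRKO (860) and 565 in WT C3aR+ against WT (0), the block 111 and 243 in the first 2 of these, and leaving out the 5 libraries 1904 and 4158. In APP-KI;C3aRKO against C3aRKO the 0 calls became 4 without the 5 libraries (C1qa, C1qc, C5ar1 and C5ar2), and 0 to 1 leaving out 1 library. There C1qc lay between -0.021 and 0.62 and C5ar1 between -0.45 and 0.017 leaving out 1 library. The interaction for C3ar1 turned from 0.44 to -0.17 without the 5. In the difference between APP-KI effects, 0 calls became 1 (C3ar1) with library weights and 1 with DESeq2, and C3 turned from 0.47 to -0.14 with library weights and -0.037 without the 5 (-0.68, without WT 6, to 1.198 leaving out 1 library).

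The replicate block left 3 calls in the C3aR+ sort and 0 in APP-KI against WT, in C3aRKO against WT, in APP-KI;C3aRKO against APP-KI and in APP-KI;C3aRKO against C3aRKO. Same-numbered libraries correlated at 0.02, 0.04 and -0.01 in the C3aR+ sort, at 0.25, 0.09 and 0.09 in APP-KI against WT, and at -0.29 and 0.01 in APP-KI;C3aRKO against APP-KI, so the numbers were not taken to pair them.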
